A study of Mus musculus with 34 samples.

Results

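The 10 genes studied here, which carry out maternal mRNA decay and translation control, were followed through single mouse embryos: Btg4, Cnot6l, Cnot7, Zfp36l2, Pabpn1l, Ythdf2, Cpeb1, Pan2, Dcp1a and Dcp2. These 10 were found by their symbols among the 49686 rows of the zygote and late 2-cell tables, and again among the 51734 rows of the blastocyst table. Zygotes had received injected mRNA for CHK1, a kinase of the DNA damage checkpoint, either as the wild-type form (WT) or as a mutant form named R442Q. RNA from 5 WT and 6 R442Q zygotes and from 4 WT and 5 R442Q late 2-cell embryos was sequenced with no drug treatment. A further 7 WT and 7 R442Q blastocysts came from embryos kept in medium with a Chk1 inhibitor at 30 nM. Each library was made from 1 embryo. All embryos carried injected CHK1 mRNA in addition to their own gene, so WT here means an embryo given extra wild-type CHK1 and not an untouched one. The labels do not say whether embryos of a group shared a litter or an injection session, so the p-values measure the spread between these embryos.

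A growing oocyte stores mRNA that the embryo uses before its own genome is switched on, and most of that store is destroyed around the first divisions. Decay usually starts with shortening of the poly(A) tail by the CCR4-NOT complex, whose catalytic subunits include the proteins made from Cnot7 and Cnot6l, or by the PAN2-PAN3 nuclease. BTG4 is an adaptor that brings CCR4-NOT to maternal mRNA, and adaptors such as ZFP36L2, which binds AU-rich elements, and YTHDF2, which reads N6-methyladenosine, mark particular transcripts for decay. The decapping pair DCP1A and DCP2 removes the cap from deadenylated mRNA. PABPN1L is an oocyte relative of the nuclear poly(A)-binding protein PABPN1. CPEB1 binds a U-rich element near the end of the 3′ UTR. It controls whether a stored mRNA is kept short-tailed or is polyadenylated and translated.

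The zygote and late 2-cell libraries held from 5727956 to 11296522 estimated read counts, so levels are given as CPM, counts scaled to a common library size, which are relative to each library and not amounts per embryo. The blastocyst data are FPKM values, scaled by transcript length and library size, for which no counts were used and the depth is unknown. The cDNA was made with SMART-seq2, which is primed on poly(A), so a shorter tail and fewer RNA molecules cannot be told apart. Nor can fewer cells of a type be told apart from less RNA per cell in a whole embryo. The summed level of 10 oocyte and zygote markers was 5368 to 9553 CPM in zygotes and 1101 to 4266 CPM in late 2-cell embryos, although the R442Q medians of Zp1, Zp3 and Oosp1 were higher at the later stage. The sum of 8 late 2-cell markers was 13.3 to 263 CPM in zygotes and 270 to 2883 CPM in late 2-cell embryos, so the lowest late 2-cell embryo was close to the highest zygote, and all 7 trophectoderm markers were present in blastocysts. Among 12 markers of cumulus cells, which can adhere to an embryo, Amh was at 0 in all zygotes and Ptx3 in all WT zygotes, and the 12 together reached 5.04 to 11.4 CPM in zygotes. In late 2-cell embryos the same sum was 68.4 to 118 CPM in WT and 19.1 to 89.2 CPM in R442Q, and Amhr2 gave 56.3 to 114 CPM of it in WT.

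In WT zygotes the 10 genes spanned a wide range of length-corrected levels, and Btg4 stood far above the rest. Btg4 had 2363 ± 169 FPKM (SD, n = 5), rank 32 of the 24335 genes above 0. Cnot7 followed at 380 ± 26.4 FPKM and Dcp2 at 297 ± 108 FPKM, and the values of those genes overlapped between embryos. Dcp1a at 155 ± 8.93 FPKM and Cpeb1 at 114 ± 18.1 FPKM came next and also overlapped. Pabpn1l at 64.8 ± 32.3 FPKM, Cnot6l at 45.2 ± 9.82 FPKM and Pan2 at 44.9 ± 6.78 FPKM could not be ordered, since each overlapped its neighbour. Ythdf2 at 21.1 ± 3.37 FPKM and Zfp36l2 at 2.41 ± 1.10 FPKM were lowest, and neither overlapped the gene above it. In R442Q zygotes the first 4 places were held by Btg4, Cnot7, Dcp2 and Dcp1a, with no overlap between neighbours, and Pan2 at 59.2 ± 10.8 FPKM and Cpeb1 at 57.6 ± 9.02 FPKM (n = 6) were level with each other.

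Between the zygote and the late 2-cell stage most of this machinery fell in both CHK1 groups. In a joint edgeR model of both stages, 8 of the 10 genes fell and Ythdf2 alone rose in WT embryos, at a Benjamini-Hochberg adjusted p under 0.05. The same test called 61.2% of 16199 genes changed, 25% lower and 36.2% higher. In R442Q embryos 8 fell and Ythdf2 rose, against a background of 65.1% changed, 29.8% lower and 35.3% higher. The median log2 fold change of the 10 genes was -1.71 in WT and -2.17 in R442Q, where all tested genes had medians of 0.34 and 0.22. In TMM-scaled CPM the stages did not overlap for 9 of the 10 genes, all but Zfp36l2, in either CHK1 group, as was so for 57% of all genes tested in WT and 45.5% in R442Q. The tests of the stages share no embryos between the CHK1 groups but share 1 estimate of the spread.

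**Figure D1:**
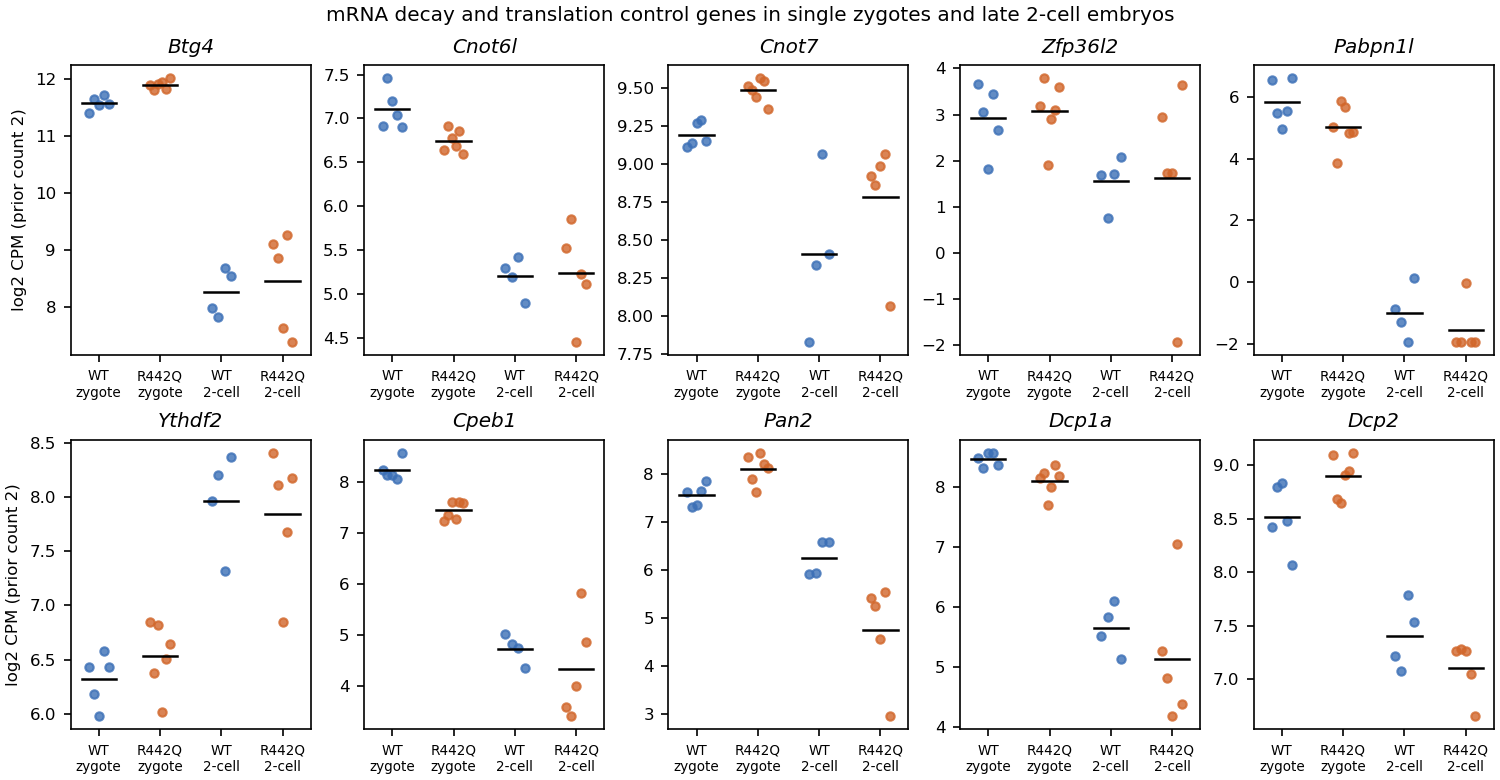
Level of each gene in single zygotes and late 2-cell embryos, as log2 CPM with a prior count of 2. Each point is 1 embryo (blue WT, orange R442Q) and each bar a group mean; 8 genes sit lower in both late 2-cell groups than in zygotes and pass the test in both, Ythdf2 sits higher, and Zfp36l2 does not pass.

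The adaptor Btg4 lost most of its share of the library. WT zygotes held 2825, 3304, 3002, 3359 and 3035 CPM of Btg4, and WT late 2-cell embryos held 291, 230, 442.5 and 383 CPM. R442Q zygotes held 3273 to 3805 CPM, and R442Q late 2-cell embryos held 539, 476, 226, 630 and 175 CPM. The stages did not overlap in either group. The fall was -3.28 ± 0.32 on the log2 scale in WT (9.74-fold lower, edgeR adjusted p = 7.83e-09). In R442Q it was -3.26 ± 0.29 (9.58-fold lower, edgeR adjusted p = 1.08e-09). Over 4 alternative fits it ran from -3.52 to -3.32 in WT and from -4.11 to -3.13 in R442Q.

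Among the deadenylase subunits, Cnot7 went from 568 to 623 CPM in WT zygotes to 262, 329, 579 and 347 CPM in WT late 2-cell embryos. The WT late 2-cell embryo at 579 CPM reached the zygote range and the other 3 lay below it; after TMM scaling this embryo too, at 535, was below the lowest WT zygote at 552. Its fall was -0.72 ± 0.22 in WT (edgeR adjusted p = 0.00662) and -0.67 ± 0.19 in R442Q (edgeR adjusted p = 0.00470). Cnot6l, another catalytic subunit, went from 120 to 179 CPM in WT zygotes to 45.0, 37.2, 46.0 and 30.3 CPM, with no overlap. It fell by 1.91 on the log2 scale in WT and by 1.45 in R442Q. Pan2, the catalytic subunit of the separate PAN2-PAN3 nuclease, fell by 1.29 in WT and by 3.16 in R442Q, a difference taken up below.

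Pabpn1l came nearest to disappearing. WT zygotes held 245 to 852 counts of it and R442Q zygotes 95 to 511. In WT late 2-cell embryos 8 counts were found over 4 libraries, at most 5 in one and 0 in another, and in R442Q late 2-cell embryos 5 counts were found in a single library and 0 in the other 4. The summed level was 63.7 CPM in WT zygotes against 0.315 CPM in WT late 2-cell embryos, a ratio of 202 with a 95% exact Poisson interval of the late 2-cell count giving 103 to 469. In R442Q the ratio was 212 with an interval from 90.9 to 653. These intervals cover counting error only. Zfp36l2 was low throughout, from 3.28 to 12.9 CPM in WT zygotes to 3.40, 1.45, 3.24 and 4.08 CPM in WT late 2-cell embryos, and its log2 fold change of -1.51 ± 0.77 missed the threshold (edgeR adjusted p = 0.0907). In R442Q embryos Zfp36l2 changed by -0.78 ± 0.67 (edgeR adjusted p = 0.314), with late 2-cell values of 7.25, 3.14, 3.46, 0 and 12.7 CPM.

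Cpeb1, the translational regulator, and the decapping genes also fell. Cpeb1 went from 267 to 382 CPM in WT zygotes to 36.9, 28.6, 28.6 and 20.8 CPM, a change of -3.50 ± 0.38 (11.3-fold lower, edgeR adjusted p = 4.76e-08). In R442Q it changed by -2.83 ± 0.33 (7.10-fold lower, edgeR adjusted p = 1.13e-07). The estimated fall of Dcp1a was larger than that of its decapping partner Dcp2 in both CHK1 groups. Dcp1a, the activator, went from 324 to 382 CPM in WT zygotes to 52.6, 57.6, 74.1 and 35.7 CPM, 6.86-fold lower, and Dcp2, the enzyme, from 268 to 457 CPM to 171, 137, 239 and 190 CPM, 2.16-fold lower. In R442Q, Dcp1a was 5.87-fold and Dcp2 3.46-fold lower. The difference between the falls of those genes was not tested.

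Ythdf2 moved the other way. WT zygotes held 88.8, 73.9, 63.3, 95.3 and 85.8 CPM, and WT late 2-cell embryos held 286, 299, 172 and 337 CPM, with no overlap. The rise was 1.68 ± 0.27 on the log2 scale in WT (3.20-fold, edgeR adjusted p = 1.19e-05) and 1.38 ± 0.24 in R442Q (2.60-fold, edgeR adjusted p = 3.13e-05). Of the 50-base stretches of Ythdf2 transcripts, 7.49% also occur in other genes, most of all in Gm6823, the largest share among the 10 genes, so some of its reads could have been split.

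**Figure D2:**
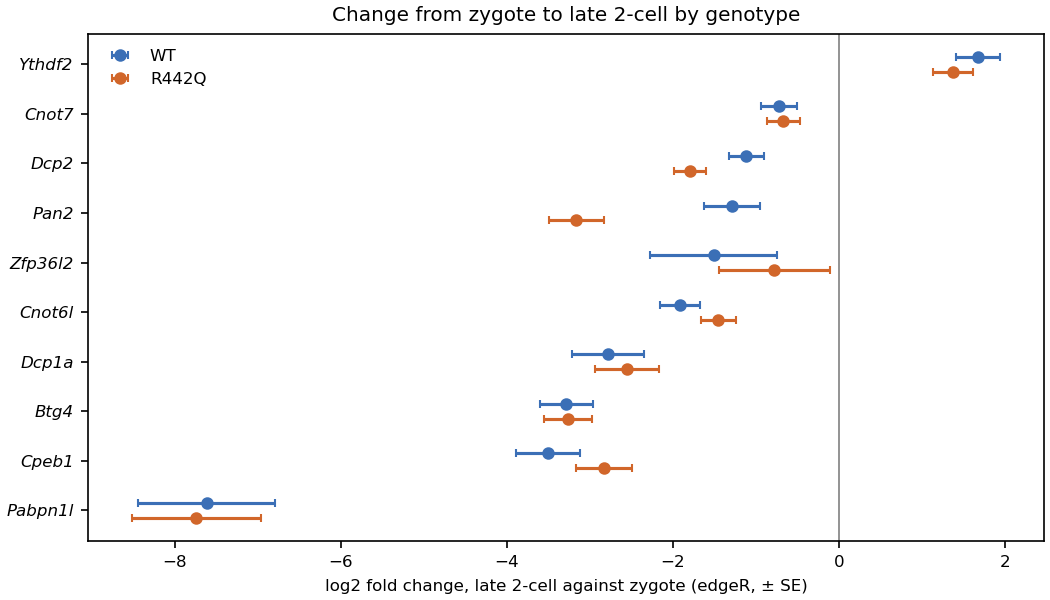
Log2 fold change from zygote to late 2-cell for each gene in WT (blue) and R442Q (orange) embryos, with the standard error from edgeR. Values run from -7.74 for Pabpn1l to 1.68 for Ythdf2, and Pan2 shows the widest gap between the CHK1 groups that passed a test, -1.29 in WT and -3.16 in R442Q.

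Relatives of the 10 genes, several of them chosen after their values were seen, moved in both directions over the same interval. Pabpn1, a separate and widely expressed relative of Pabpn1l, went from a mean of 13.9 CPM in WT zygotes to 438 CPM in WT late 2-cell embryos. Its log2 change was 4.89 ± 0.27 (edgeR adjusted p = 1.44e-12). Of the cytoplasmic poly(A)-binding genes, the oocyte form Pabpc1l went from 292 to 3.90 CPM (-6.31 ± 0.52) and the general form Pabpc1 from 3.11 to 180 CPM (5.77 ± 0.40). Among relatives of Btg4, Btg1 rose by 4.56, Tob1 by 3.96 and Btg2 by 1.88 on the log2 scale in WT, each past the edgeR threshold. Cnot8, the near copy of Cnot7, rose by 1.03 in WT (edgeR adjusted p = 0.000439) and changed by 0.32 in R442Q (edgeR adjusted p = 0.168). Zfp36, a relative of Zfp36l2, rose by 2.27 in WT and by 1.01 in R442Q, and the m6A reader Ythdf1 rose by 1.65 in WT and by 2.11 in R442Q while its relative Ythdf3 fell by 0.73 and by 1.55.

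Over the wider pathway, 101 further genes were listed. They covered other CCR4-NOT subunits and BTG/TOB adaptors, genes listed as poly(A) nucleases, decapping factors, poly(A)-binding proteins and m6A factors. AU-rich element binders, polyadenylation and masking factors, uridylation and 3′-to-5′ decay factors, and nonsense-mediated decay factors were also included. Of the 99 tested, 29 rose and 34 fell in WT, and 27 rose and 40 fell in R442Q. That is 63.6% changed in WT and 67.7% in R442Q, close to the share over all genes, where 36.2% were higher and 25% lower in WT and 35.3% and 29.8% in R442Q. All 7 poly(A)-binding and PABP-interacting genes changed in WT, 3 up and 4 down. Of 18 polyadenylation and masking genes, 5 rose and 8 fell in WT and 2 rose and 11 fell in R442Q; Dazl, an oocyte translation regulator, fell in both, with log2 changes of -3.88 in WT and -2.32 in R442Q.

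The pattern over the 20 zygotes and late 2-cell embryos most like that of Btg4 was sought among 3915 genes with a mean log2 CPM of at least 5 by Pearson correlation of log2 CPM. The 3 closest were E330034G19Rik (r = 0.993), Cep55 (r = 0.989) and Pias1 (r = 0.988), all high in zygotes. These values describe a shared difference between stages, since the embryos fall into 2 stage clusters.

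Because CPEB1 recognises the cytoplasmic polyadenylation element (CPE), the annotated end of each 3′ UTR was searched for it. TTTTAT or TTTTAAT was sought in the last 100 bases of 1 GENCODE M21 transcript per gene on build GRCm38, on the sense strand, together with the poly(A) signal AATAAA or ATTAAA. Btg4, Cnot7, Dcp1a and Pan2 held a CPE, 4 of 10 genes, where 17.9% of 19415 genes did. A poly(A) signal was found in 9 of the 10 genes, all but Btg4, and in 78.6% of all genes. The windows below show why those 4 genes were singled out: capitals mark the CPE and any poly(A) signal, and in Dcp1a the elements share bases. Each reads 5′ to 3′ on the strand of the gene.
Btg4: tccctTTTTATgtctttttaaaagtttgat
Cnot7: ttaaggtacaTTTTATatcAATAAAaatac
Dcp1a: tatttTTTTAATAAAatttcaaaaccaagt
Pan2: aAATAAAagtatTTTTATctcattagaaaa
The windows lie at chr9:51119804-51119833 (plus strand), chr8:40493036-40493065 (minus strand), chr14:30527016-30527045 (plus strand) and chr10:128321324-128321353 (plus strand), in that order, in the 3′ UTR of the last exon of each transcript. The log2 changes of these 4 genes between stages in WT ran from -3.28 to -0.72, and those of the 6 genes without a CPE in this window from -7.62 to 1.68, so the ranges overlapped. A match is a string of letters and not a measured binding site.

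Pan2 was the gene whose stage change differed between the CHK1 groups. WT zygotes held 205, 163, 164, 200 and 233 CPM of Pan2 and R442Q zygotes 289, 218, 187, 314, 270 and 256 CPM. WT late 2-cell embryos held 69.4, 62.0, 104 and 98.0 CPM and R442Q late 2-cell embryos 41.2, 38.8, 26.6, 47.6 and 7.85 CPM. R442Q embryos were thus mostly higher as zygotes, with overlap, and all lower at the late 2-cell stage, without overlap. The interaction of CHK1 group and stage was -1.87 ± 0.45 on the log2 scale (edgeR adjusted p = 0.00933), and 10.1% of 16199 genes passed that test, 497 upward (3.07%) and 1142 downward (7.05%). With RLE size factors in place of TMM the split was 707 and 917, the median of all genes moved from -0.16 to -0.01, and Pan2 was at -1.70 (edgeR adjusted p = 0.0188). Leaving out each of the 20 embryos in turn gave -1.95 to -1.46, all past the threshold. With the trend of each library on gene length and GC content removed, the value was -1.03 and missed it (edgeR adjusted p = 0.282), and the split of all genes was 468 upward and 476 downward.

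None of the other 9 genes passed the interaction test. Dcp2 came next at -0.68 ± 0.27 (edgeR adjusted p = 0.120), and Btg4 at 0.02 ± 0.38 and Cnot7 at 0.05 ± 0.29 lay near 0. Pan3, the partner of Pan2, had an interaction of -0.38 ± 0.31 (edgeR adjusted p = 0.490), with means of 83.2 and 84.9 CPM in WT and R442Q late 2-cell embryos. Among the 99 listed pathway genes tested, 15 passed, 4 upward and 11 downward, where 10.1% of all genes passed, 3.07% upward and 7.05% downward. The upward 4 were Ddx6, a helicase of the decapping machinery, at 1.84 ± 0.51, Dazl at 1.56 ± 0.37, Sympk, a scaffold of 3′ end processing, at 1.34 ± 0.36 and Paip2b, an inhibitor of poly(A)-binding protein, at 1.11 ± 0.29. Of 6 genes listed as poly(A) nucleases other than Pan2, a list that also holds its partner Pan3, 3 passed. Among these were Angel2 at -1.41 ± 0.28 (edgeR adjusted p = 0.00264) and Pde12 at -2.39 ± 0.69 (edgeR adjusted p = 0.0289). Others that passed downward included Tob2, an adaptor of CCR4-NOT, at -1.72 ± 0.33, and Cpeb4, a relative of Cpeb1, at -1.64 ± 0.33.

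Within zygotes, 5 of the 10 genes differed between R442Q and WT embryos. In the edgeR fit of zygotes alone, Btg4 and Pan2 were higher and Cpeb1, Cnot6l and Dcp1a lower in R442Q, at an adjusted p under 0.05; 13.2% of 12420 genes tested passed, 6.3% higher and 6.92% lower. That split of 783 higher and 860 lower was 385 and 1234 from FPKM with limma, and 197 and 73 with both stages fitted together. Of these 5, Cpeb1 had the largest difference. WT zygotes held 314, 286, 283, 267 and 382 CPM and R442Q zygotes 133, 148, 184, 138, 177 and 177 CPM, so every R442Q embryo was below every WT embryo. Its log2 fold change was -0.82 ± 0.12, 1.77-fold lower, and its p ranked 65 of all genes (edgeR adjusted p = 0.000527).

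The other differences were smaller. Cnot6l in R442Q zygotes was 88.5, 109, 102, 92.5, 106 and 88.4 CPM against 120 to 179 CPM in WT, a log2 difference of -0.39 ± 0.12 (edgeR adjusted p = 0.0320). Dcp1a was 250, 273, 194, 231, 300 and 265 CPM against 324 to 382 CPM, a difference of -0.38 ± 0.12 (edgeR adjusted p = 0.0451). Overlap between the groups depended on the scaling. In CPM, Cpeb1, Cnot6l and Dcp1a were the 3 genes whose groups did not overlap, as was so for 9.39% of all genes tested. In CPM rescaled by the TMM factors of the zygote fit, these were Cpeb1, Cnot6l and Btg4 (8.71% of all genes), and Dcp1a overlapped, with 295 to 371 in WT and 195 to 313 in R442Q. With the TMM factors of both stages, used in the plot of levels by stage, Cnot6l overlapped as well and Cnot7 did not, at 552 to 624 in WT and 657 to 755 in R442Q. Btg4 was 0.29 ± 0.08 higher (edgeR adjusted p = 0.0173) and Pan2 0.53 ± 0.15 higher (edgeR adjusted p = 0.0298); the Pan2 groups overlapped on each scale.

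The remaining 5 genes missed the threshold in zygotes. Cnot7 was 0.26 ± 0.09 higher (edgeR adjusted p = 0.0533), past the threshold with RLE size factors (edgeR adjusted p = 0.0453) and with DESeq2 (adjusted p = 0.0184), and Dcp2 0.34 ± 0.13 higher (edgeR adjusted p = 0.104). Pabpn1l varied widely among embryos, with 96.7, 44.8, 30.9, 45.8 and 96.3 CPM in WT and 28.4, 12.9, 54.0, 45.7, 25.5 and 26.4 CPM in R442Q, a difference of -0.86 ± 0.33 (edgeR adjusted p = 0.0989) that passed without the filter on low counts (edgeR adjusted p = 0.0022). Ythdf2 and Zfp36l2 differed by 0.19 ± 0.16 and 0.09 ± 0.36. The median over the 10 genes was 0.14, against 0.01 over all genes tested.

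The 5 calls in zygotes depended on the fit, and so did the size of some differences. Over 6 alternative fits the log2 difference ran from 0.16 to 0.32 for Btg4 and from -0.58 to -0.37 for Cnot6l. All 5 missed the threshold when both stages were fitted together, with edgeR adjusted p-values of 0.742 for Btg4, 0.468 for Pan2, 0.237 for Cpeb1, 0.503 for Cnot6l and 0.838 for Dcp1a, while the log2 differences were 0.32, 0.56, -0.79, -0.37 and -0.35 in that order, close to those from zygotes alone. Cpeb1 passed without any 1 of the 11 zygotes, Btg4 missed it without WT replicate 1 (0.0549), Cnot6l missed it in 5 of the 11 fits, Pan2 in 6 and Dcp1a in 9, up to 0.0962, 0.0831 and 0.0964. The sum of 8 late 2-cell markers also separated these groups. It was 13.3 to 26.0 CPM in WT zygotes and 47.0 to 263 CPM in R442Q zygotes. Singly, Zfp352, Usp17lc and Usp17le overlapped, and Tdpoz4 was at or near 0 in both. Of the blastocyst markers, Krt18 (0 to 1.64 CPM in WT, 2.22 to 7.90 CPM in R442Q) and Pdgfra (0.247 to 1.72, 2.11 to 4.99) were higher in R442Q without overlap. Esrrb was lower without overlap (12.7 to 22.3, 8.32 to 12.0), and the rest overlapped. Oocyte and zygote markers summed to 7318 to 9553 CPM in WT and 5368 to 8393 CPM in R442Q. The part of these markers in the result was not tested.

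**Figure D3:**
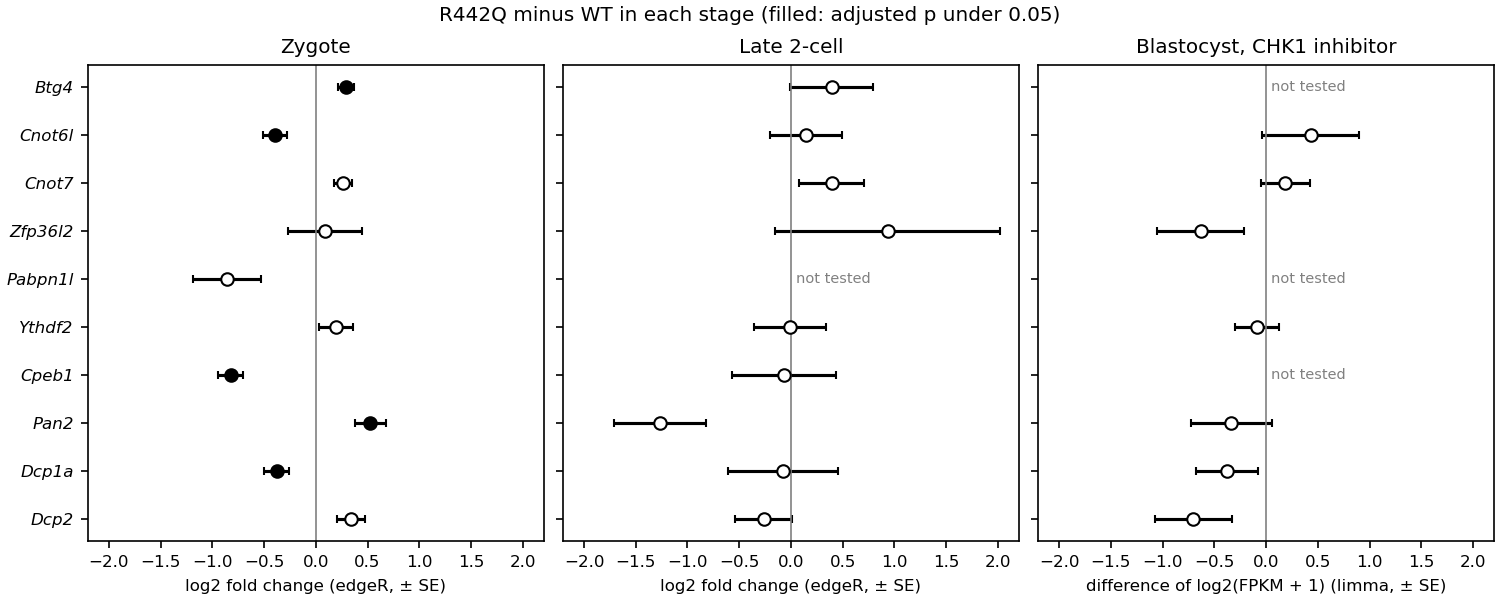
Difference between R442Q and WT embryos for each gene in zygotes, late 2-cell embryos and blastocysts, with standard errors; filled points have an adjusted p under 0.05 and "not tested" marks genes under the low-value filter. The 5 filled points are Btg4, Pan2, Cpeb1, Cnot6l and Dcp1a in zygotes; of the 10 genes, Pan2 alone passed the test of a difference between the zygote and late 2-cell effects.

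Other pathway genes differed in zygotes as well, 20 of 95 tested (6 higher, 14 lower in R442Q), where 13.2% of all genes passed, 6.3% higher and 6.92% lower. Cnot8 was 0.58 ± 0.15 higher and Cnot11, another CCR4-NOT subunit, changed by -0.79 ± 0.21 on the log2 scale. Pan3 was 0.41 ± 0.13 higher, in the direction of Pan2, and the decapping activator Patl1 was 0.64 ± 0.16 higher. Ddx6 changed by -1.15 ± 0.30, Pabpc1l by -0.80 ± 0.19 and Paip2b by -1.06 ± 0.14. The cytoplasmic poly(A) polymerase gene listed as Papd4 (also called Tent2) was 0.46 ± 0.11 higher, and Cpeb4 0.66 ± 0.17 higher, the reverse of Cpeb1. Smg6, an endonuclease of nonsense-mediated decay, changed by -1.52 ± 0.21. All these values come from the fit of zygotes alone, beside the same shift in stage markers.

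At the late 2-cell stage none of the 9 genes tested passed the edgeR threshold between R442Q and WT, where 4.18% of 13883 genes did (1.22% higher, 2.95% lower), and 1 of the 9, Pan2, had an unadjusted p under 0.05. The split of 170 genes higher and 410 lower was 280 and 392 from FPKM with limma, and 89 and 115 with the length and GC trend removed. Pabpn1l was under the filter on low counts. Pan2 differed by -1.27 ± 0.44, 2.40-fold lower (edgeR adjusted p = 0.118), and was the only 1 of the 9 whose groups did not overlap, as 12.4% of all genes tested did not (12% in TMM-scaled CPM, where Pan2 was again the only one). It passed with DESeq2 (adjusted p = 0.0449) and with both stages fitted together (edgeR adjusted p = 0.00916), and was -0.59 after removal of the length and GC trend (edgeR adjusted p = 0.636). Btg4 and Cnot7 both differed by 0.39, with SE of 0.40 and 0.32, and Zfp36l2 by 0.93 ± 1.09. The other 5 lay between -0.26 and 0.15.

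Scatter among R442Q late 2-cell embryos was wide for several genes. Dcp1a was 37.3, 28.6, 20.4, 134 and 21.5 CPM and Cpeb1 was 11.4, 10.6, 17.98, 57.4 and 30.1 CPM, and the same embryo, R442Q replicate 4, was highest in both and in Btg4. Replicate 5 was lowest in Btg4, Cnot7, Pan2 and Dcp2 and highest in Zfp36l2. Oocyte and zygote markers summed to 1384 to 4266 CPM in these 5 embryos and to 1101 to 2826 CPM in the 4 WT embryos. Late 2-cell markers summed to 1057 to 2883 CPM in R442Q (median 1956) and to 270 to 2308 CPM in WT (median 731). The part of these markers in the spread and in the differences between the groups was not tested. Of 95 other pathway genes tested, 6 differed, where 4.18% of all genes did: Sympk was 1.43 ± 0.32 higher in R442Q, and Tob2 (-1.70 ± 0.31), Alkbh5 (-1.08 ± 0.28), Mettl16 (-1.94 ± 0.52), Tut1 (-1.98 ± 0.49) and Smg5 (-2.31 ± 0.50) were lower.

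In the inhibitor-treated blastocysts Btg4 and Pabpn1l were listed at 0 in all 14 embryos, while the general decay enzymes were present. Cpeb1 was listed at 0 in 4 of 7 WT and 3 of 7 R442Q embryos, with 4.08, 0, 2.12, 0, 0, 0 and 0.02 FPKM in WT and 1.71, 0, 5.66, 0, 1.36, 0 and 0.03 FPKM in R442Q. Cnot6l was low, from 0 to 3.62 FPKM in WT with a median of 1.03, and from 0.16 to 6.99 FPKM in R442Q with a median of 2.00. Dcp2 (median 73.3 FPKM in WT), Ythdf2 (65.2 FPKM) and Cnot7 (28.9 FPKM) were highest, and the order of Dcp2 and Ythdf2 could not be told, since their values overlapped. Pan2 had a median of 10.8 FPKM, Dcp1a 5.05 FPKM and Zfp36l2 4.93 FPKM in WT. The FPKM tables of the stages were normalised apart, and the blastocysts alone had the inhibitor, so stage and inhibitor cannot be told apart and the levels are set side by side without a test: Dcp2, Ythdf2 and Cnot7 were the leading 3 here, where Btg4 led in zygotes and Cnot7 and Btg4, which overlapped, in late 2-cell embryos.

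**Figure D4:**
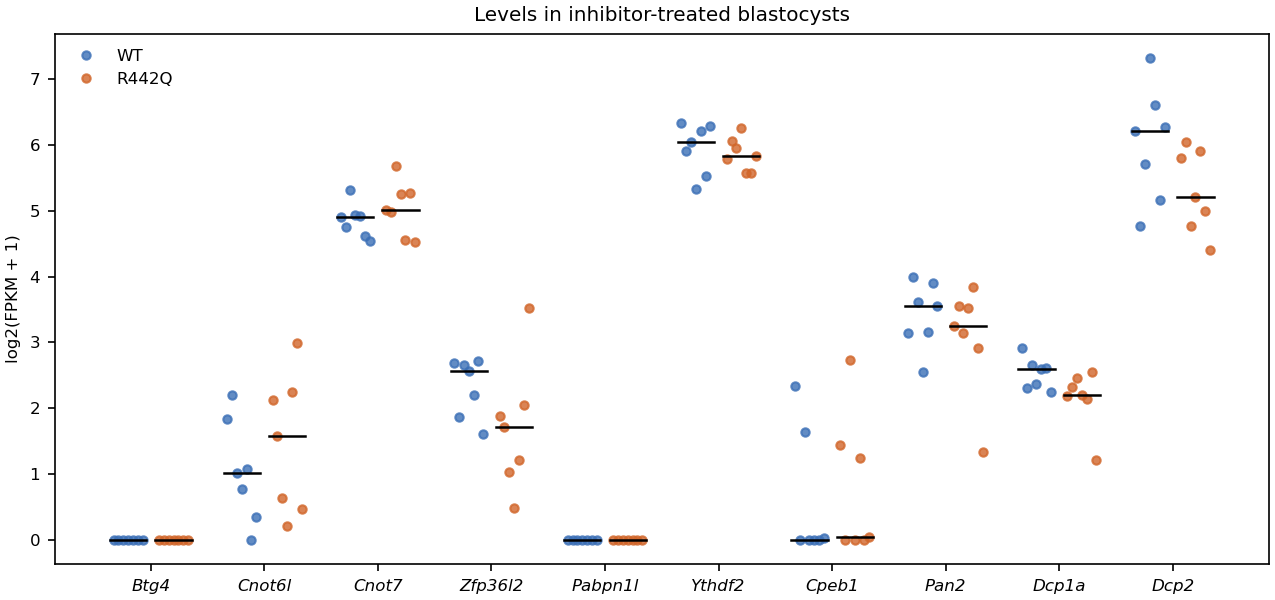
Level of each gene in the 14 inhibitor-treated blastocysts as log2(FPKM + 1), with 1 point per embryo (blue WT, orange R442Q) and bars at group medians. Btg4 and Pabpn1l lie at 0 in all 14, and the groups overlap for each gene shown above 0.

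No gene of the set differed between R442Q and WT blastocysts in the limma test of log2(FPKM + 1). Of the 7 genes above the filter, none passed and none had an unadjusted p under 0.05; 0.00885% of 11297 genes passed, which was 1 gene. The largest difference was that of Dcp2, whose WT values ran from 26.4 to 159 FPKM with a median of 73.3 and R442Q values from 20.1 to 65.2 with a median of 35.8, -0.70 ± 0.37 on this scale (limma adjusted p = 0.732). Zfp36l2 differed by -0.63 ± 0.42, with 2.06 to 5.60 FPKM in WT and 0.40 to 10.5 FPKM in R442Q, where replicate 7 was highest. That library had the fewest genes above 0 of the 14, 12337 against 13383 to 18108. Without it the difference was -0.94 for Zfp36l2, -0.22 for Dcp1a and -0.043 for Pan2, and none of the 7 genes passed. Cnot6l differed by 0.43 ± 0.47, Dcp1a by -0.38 ± 0.30, Pan2 by -0.33 ± 0.39, Cnot7 by 0.19 ± 0.23 and Ythdf2 by -0.09 ± 0.21, all with overlap. None of 87 other pathway genes tested passed.

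Btg4 and Pabpn1l were the members listed at 0 in all blastocysts, and their promoters are shown for that reason, from 250 bases before to 50 bases after the start in RefSeq on GRCm38.p6. Capitals mark the E-box CANNTG, the general motif of helix-loop-helix factors, which reads the same on both strands.
Btg4: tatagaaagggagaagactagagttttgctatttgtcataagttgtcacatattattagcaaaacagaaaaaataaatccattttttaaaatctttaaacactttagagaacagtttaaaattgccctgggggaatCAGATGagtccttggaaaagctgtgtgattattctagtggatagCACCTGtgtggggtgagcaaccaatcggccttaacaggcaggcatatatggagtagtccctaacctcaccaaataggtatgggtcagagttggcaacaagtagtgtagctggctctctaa
Pabpn1l: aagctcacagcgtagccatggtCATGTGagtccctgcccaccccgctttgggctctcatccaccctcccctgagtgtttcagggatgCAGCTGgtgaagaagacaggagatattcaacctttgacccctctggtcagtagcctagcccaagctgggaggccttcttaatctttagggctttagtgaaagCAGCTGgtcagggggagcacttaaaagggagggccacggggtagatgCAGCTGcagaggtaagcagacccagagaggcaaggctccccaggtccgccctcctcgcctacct
The Btg4 window is chr9:51115751-51116050 (plus strand) and the Pabpn1l window is chr8:122622686-122622985 (minus strand). The Btg4 window belongs to a RefSeq start that lies inside the GENCODE M21 gene, which begins at chr9:51060901. Its values are those of that start only, and which start the embryos used was not tested. They hold 2 and 4 E-boxes, and 72.3% of the 32851 promoters in the table hold at least 1. The NOBOX element TAATTG, searched on both strands, was in neither window and in 8% of all promoters. The Btg4 promoter is 39% G and C with 1 CG pair and that of Pabpn1l 57.7% with 5, where all promoters had medians of 52.7% and 7. These are letters in a window and say nothing of binding.

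The authors deposited both counts and FPKM for zygotes and late 2-cell embryos, and their quotient gives the transcript length by which each value was divided, which follows the mix of transcript forms that the software assigned. For Btg4 this implied length was steady, 1227 to 1365 bases over all 20 embryos. For Cnot7 it was 1487 to 1610 bases in WT zygotes and 1083 to 1331 bases in WT late 2-cell embryos, without overlap, and 1452 to 1524 against 986 to 1116 bases in R442Q. The late 2-cell median was 0.729 of the zygote median in WT and 0.731 in R442Q, where the medians over 5805 genes were 1.02 and 0.985; the WT value lay at the 7.10th percentile of those genes and the R442Q value at the 13.6th. Dcp2 was the least steady at the late 2-cell stage, at 1406 to 1967 bases in WT and 506 to 2548 bases in R442Q. The ratio of its highest to its lowest length was 5.04, a spread at the 98.6th percentile of 7418 genes. The sign of the R442Q difference of Dcp2 depended on the unit: 0.34 from counts and -0.17 from FPKM in zygotes, and -0.26 and 0.26 in late 2-cell embryos, none of them past a threshold. Cnot6l spread 3.41-fold at that stage and likewise went from 0.15 by counts to -0.49 by FPKM.

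**Figure D5:**
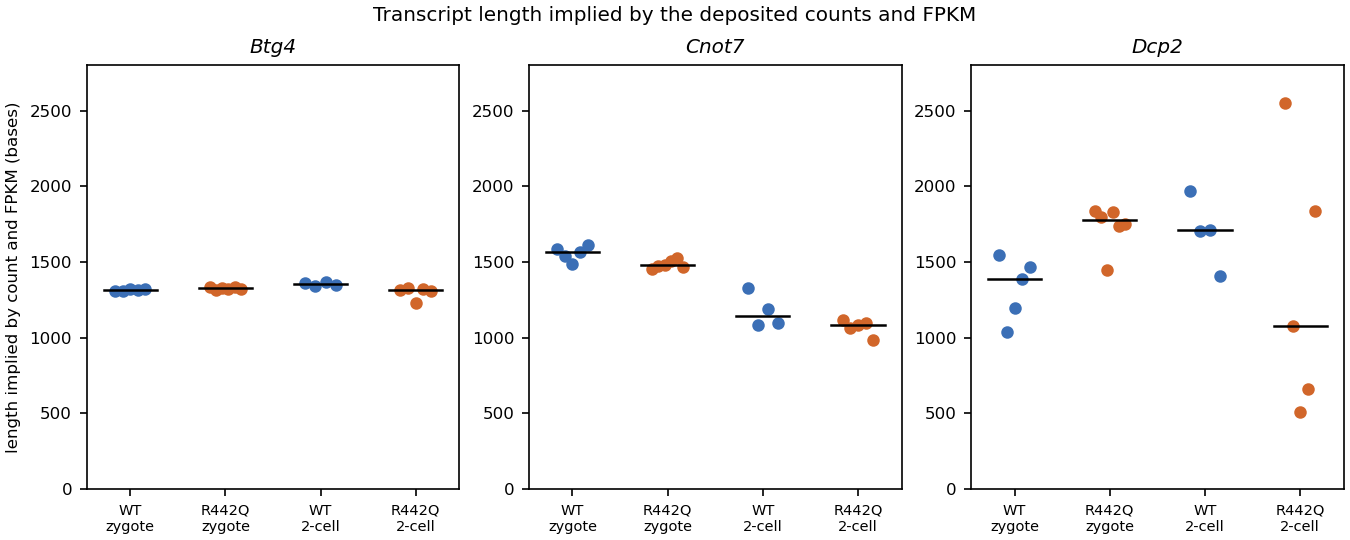
Transcript length implied by the deposited counts and FPKM, in bases, for Btg4, Cnot7 and Dcp2; each point is 1 embryo (blue WT, orange R442Q) and each bar a median. Btg4 stays between 1227 and 1365 bases, Cnot7 is shorter in late 2-cell embryos, and Dcp2 runs from 506 to 2548 bases in R442Q late 2-cell embryos.

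By position on GRCm38 with GENCODE M21, Btg4 lies at chr9:51060901-51119875 (plus strand), where 4833427G06Rik, Layn, Mir34b and Mir34c overlap it on the other strand. Pan2 lies at chr10:128303335-128321358 (plus strand) with no overlapping gene. Cpeb1 lies at chr7:81347026-81455465 (minus strand), opposite the pseudogene Rpl7a-ps9. Cnot7 at chr8:40492540-40515847 (minus strand) overlaps Vps37a and Zdhhc2, and Dcp1a at chr14:30479535-30527063 (plus strand) overlaps Cacna1d, all on the other strand. Whether counting used the strand is not given in the sources used here, so reads of overlapping genes cannot be told apart.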

How the data were processed

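Single-embryo RNA libraries were made with SMART-seq2 and Tn5 tagmentation, per the labels' protocols. Per the submitters' processing notes the authors used RSEM with build mm10. The aligner, annotation and strand setting are not given in the sources used here. The authors deposited estimated counts and FPKM for zygotes and late 2-cell embryos and FPKM alone for blastocysts; each FPKM table was normalised on its own. All value columns were matched to samples by their labels.

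Estimated counts were rounded and fitted with edgeR 4.0.16 (TMM scaling, filterByExpr with a count minimum of 10, quasi-likelihood test) in R 4.3.3, in each stage alone for R442Q against WT and in 1 model of 4 groups for the stage changes and the interaction. Log2 CPM values used a prior count of 2. CPM in the text are without TMM factors unless said; overlap on TMM-scaled CPM was added after seeing the data. Blastocyst FPKM were tested with limma 3.58.1 (limma-trend) on log2(FPKM + 1), for genes of at least 1 FPKM in at least 7 embryos; fold changes on this scale are understated for low genes. P-values were adjusted over all genes tested by Benjamini-Hochberg, with 0.05 as the threshold. The fits were also run on simulated data, with an outcome that is not given here. Alternatives were RLE scaling, no filter, DESeq2 1.42.0, a replicate block, both stages fitted together, FPKM with limma, removal of length and GC trends, a pseudocount of 0.1, TMM-scaled FPKM, and leaving out each embryo; the trend removal for the joint model was added after seeing the data. Trend removal used the 99.2% of zygote and 99.3% of late 2-cell genes tested that have a length and GC value. Implied lengths were compared for genes with at least 20 counts in every embryo.

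The genes and lists were chosen with earlier results of these data known. All 10 genes are described; of each pathway list, up to 2 genes past the threshold with the smallest p in each direction could be named in a comparison. Pathway genes named outside that rule, among them relatives of the 10 genes such as Btg2, Cnot8, Zfp36, Ythdf3 and Pan3, were chosen after their values were seen. Symbols were matched to GENCODE M21 on GRCm38 (98.4% of the early tables, 92.1% of the blastocyst table). Protein sequences were not used here, and no sequence is shown for Dcp2.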

Additional observations from a re-analysis of the deposited data

Results flagged for a closer look

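Within groups of 4 to 10 embryos, Dixon's test at the 95% level marked 4 of 56 checks of a gene in a group, and chance marks about 1 in 20. Cnot7 in R442Q late 2-cell replicate 5 was at 279 CPM where the other 4 embryos were at 472 to 577 CPM. Pabpn1l in R442Q late 2-cell replicate 3 was at 0.825 CPM where the other 4 were at 0. Any value above 0 would have been marked there, and this one rests on 5 counts. It cannot be set against the rate of marks by chance. In blastocysts both marks fell on the same embryo, R442Q replicate 7, the library with the fewest genes above 0 (12337): Pan2 was at 1.52 FPKM where the other 6 were at 6.54 to 13.4, and Dcp1a was at 1.31 FPKM where the other 6 were at 3.40 to 4.88.

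The R442Q effect on Pan2 differed between late 2-cell embryos and zygotes by -1.87 on the log2 scale, by the interaction term of the joint edgeR fit (adjusted p = 0.00933). The difference missed the threshold after removal of length and GC trends, as given with the result.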

How the results depend on the processing

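The falls of Btg4, Cnot6l, Cnot7, Pabpn1l, Cpeb1, Pan2, Dcp1a and Dcp2 and the rise of Ythdf2 between stages stayed past the threshold under RLE scaling, no filter, DESeq2, the block, trend removal and without each of the 20 embryos, except that DESeq2 gave no adjusted p for Dcp1a. Zfp36l2 in WT passed with DESeq2 (-1.56) and with trend removal (-2.21), where all 10 genes then changed. The 5 zygote calls became 2 with the replicate block (Cpeb1 and Pan2; Btg4 at 0.28, Cnot6l at -0.35 and Dcp1a at -0.40 kept near their size), 3 with FPKM and limma (Cpeb1, Cnot6l and Dcp1a), 4 with trend removal (Pan2 lost, adjusted p = 0.0741), 6 with DESeq2 (Cnot7 gained), 0 with stages fitted together and 2 to 5 without 1 embryo. They stayed 5 with RLE scaling, with Cnot7 in place of Dcp1a (0.0513), and with no filter, with Pabpn1l in place of Btg4 (0.161). At the late 2-cell stage 0 became 1 (Pan2) with DESeq2 and with stages fitted together. The interaction count of 1 (Pan2) became 0 with trend removal and 1 to 2 without 1 embryo, Cnot6l joining without R442Q late 2-cell replicate 3 (adjusted p = 0.0499).

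Counts of all genes moved more. In zygotes 1643 became 270 with stages fitted together. At the late 2-cell stage 580 became 889 without the filter, 1683 with DESeq2, 58 with the replicate block, 2507 with stages fitted together, 204 with trend removal and 142 to 891 without 1 embryo. The 142 was without WT replicate 2 and the 891 without R442Q replicate 3. The interaction count of 1639 became 1085 with the block, 944 with trend removal and 1089 to 2311 without 1 embryo (1089 without WT zygote replicate 2). In blastocysts 1 became 0 without the filter, 3 with TMM-scaled FPKM, 0 with the replicate block and 0 to 30 without 1 embryo (30 without WT replicate 7); 836 genes had an unadjusted p under 0.05 with limma. The causes were not tested.

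Signs turned for values that passed no threshold. In zygotes FPKM gave -0.0088 for Zfp36l2 and -0.17 for Dcp2. At the late 2-cell stage FPKM gave -0.49 for Cnot6l and 0.26 for Dcp2, the block gave -0.12 for Zfp36l2, and trend removal gave -0.46 for Btg4, 0.066 for Ythdf2, 0.44 for Dcp1a and 0.24 for Dcp2. For the interaction, RLE scaling gave 0.023 for Pabpn1l, the block gave -0.010 for Dcp1a, and trend removal gave -0.59 for Btg4, -0.026 for Cnot7, 0.34 for Pabpn1l and 0.013 for Dcp2. Without 1 embryo, Zfp36l2 ran from -0.12 to 0.31 in zygotes; at the late 2-cell stage Cnot6l ran from -0.025 to 0.31, Ythdf2 from -0.19 to 0.17, Cpeb1 from -0.61 to 0.14 and Dcp1a from -0.92 to 0.16. The interaction ran from -0.044 to 0.38 for Btg4, from -3.32 to 0.87 for Pabpn1l, from -0.37 to 0.048 for Ythdf2 and from -0.48 to 0.62 for Dcp1a.

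Deviations of embryos of the CHK1 groups with the same replicate number correlated from -0.17 to 0.21. Not every embryo correlated best with its own number. These replicate numbers differ from the submitters' own embryo numbers for zygotes and in part for late 2-cell embryos. The check and the replicate block thus cannot show whether embryos shared a session or a litter, and the block is given as an alternative only. Pabpn1l was under the filter at the late 2-cell stage, so a difference between the CHK1 groups was not detectable there at this depth.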
